A study of Mus musculus with 12 samples.

Results

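The IL-6 family of cytokines was followed in 12 mouse tumors through 10 genes picked by symbol for their known roles. They are 4 ligands (Il6, Lif, Osm, Il11), 4 receptors specific to a ligand (Il6ra, Lifr, Osmr, Il11ra1), the shared receptor chain Il6st and the feedback inhibitor Socs3. Of these 10 genes, 9 had a probeset with 1 gene symbol, among 19938 genes that had one, and 8 passed the filter on low values and were tested, among 16573 genes. Il11ra1 was not analysed here because no probeset carried its symbol alone in the annotation used. Il6 stayed under the filter.

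RNA was measured on Affymetrix mouse gene arrays in subcutaneous tumors of J2A cells, with 4 tumors in each of 3 groups, numbered 1, 2, 4 and 5. J2A is an aortic myofibroblast line of C57BL/6 mice that lack p16, p19 and Vnn1, and all 3 groups carry oncogenic H-RasV12 with GFP from the retroviral vector pQCXIX. R tumors carry H-RasV12 with no Vnn1, VR tumors also carry intact mouse Vnn1, a pantetheinase that splits pantetheine into cysteamine and pantothenate, and VdR tumors carry Vnn1dCr, a form without catalytic activity. In VR and VdR cells Vnn1 is driven by the CMV promoter of the vector, and its RNA level in each group is given below. For each tumor 2000000 cells were grafted on the back of a female nude mouse on normal diet, a host that lacks mature T cells but keeps its macrophages, NK cells and vessels. Per the labels, tumors were taken after 2 to 3 weeks according to how fast they grew, whereas the methods give 1 fixed day for all groups, so it is not settled whether harvest time differed between groups. As far as is stated, all tumors of a group come from 1 transduced line, so they replicate the graft and not the transduction, and p-values measure the spread between these tumors. The labels' extraction text speaks of sorted cells, whereas the methods describe RNA of the whole tumor mass. In such bulk RNA, fewer cells of a type and less RNA per cell cannot be told apart. Values are log2 expression, so a difference of 1 is a 2-fold difference, and probes of different genes were not set against each other.

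Cytokines of this family bind a receptor chain of their own and then recruit the shared chain gp130, the product of Il6st. LIF uses LIFR beside gp130, oncostatin M uses OSMR beside gp130 in the mouse, and IL-6 and IL-11 bind IL6RA and IL11RA before gp130 pairs. The assembled receptor activates JAK kinases, which phosphorylate STAT3, and STAT3 switches on target genes that include Socs3, whose product binds gp130 and the JAKs and shuts the signal down. Fibroblasts are a known source of LIF, IL-6 and IL-11 in tumors.

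In RefSeq (GRCm38.p6) Lif and Osm are neighbours on chromosome 11, and Lifr and Osmr are neighbours on chromosome 15, with 0 protein-coding genes between the genes of each pair. The 250 bases before the annotated start are shown for the genes on which the results turn, Lif and Il11, which fell in VR tumors, Lifr, which rose, and Socs3, the feedback inhibitor. They are RefSeq sequences of GRCm38.p6, 5′ to 3′ on the gene's strand. Lif lies at chr11:4257318-4257567 on the plus strand and the downstream one of the annotated Il11 starts at chr7:4778142-4778391 on the minus strand. The upstream one of the annotated Lifr starts lies at chr15:7129322-7129571 on the plus strand and Socs3 at chr11:117969367-117969616 on the minus strand. Capitals mark TGANTCA, the motif of AP-1, in Lif and Il11, and TTCNNNGAA, the motif of STAT factors, in Socs3.
Lif: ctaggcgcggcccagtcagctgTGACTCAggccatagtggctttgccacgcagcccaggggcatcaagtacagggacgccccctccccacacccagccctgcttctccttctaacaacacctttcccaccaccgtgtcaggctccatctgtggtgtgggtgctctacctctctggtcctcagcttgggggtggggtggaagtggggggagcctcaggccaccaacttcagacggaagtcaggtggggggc
Il11: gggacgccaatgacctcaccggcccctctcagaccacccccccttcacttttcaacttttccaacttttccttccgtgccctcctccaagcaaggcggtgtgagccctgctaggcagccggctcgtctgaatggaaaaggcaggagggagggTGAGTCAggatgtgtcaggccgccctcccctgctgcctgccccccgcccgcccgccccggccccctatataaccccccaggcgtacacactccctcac
Lifr: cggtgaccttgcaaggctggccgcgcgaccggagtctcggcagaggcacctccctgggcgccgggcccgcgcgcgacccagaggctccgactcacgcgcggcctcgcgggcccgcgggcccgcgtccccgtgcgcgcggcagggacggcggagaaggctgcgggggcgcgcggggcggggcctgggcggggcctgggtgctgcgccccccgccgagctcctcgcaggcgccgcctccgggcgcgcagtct
Socs3: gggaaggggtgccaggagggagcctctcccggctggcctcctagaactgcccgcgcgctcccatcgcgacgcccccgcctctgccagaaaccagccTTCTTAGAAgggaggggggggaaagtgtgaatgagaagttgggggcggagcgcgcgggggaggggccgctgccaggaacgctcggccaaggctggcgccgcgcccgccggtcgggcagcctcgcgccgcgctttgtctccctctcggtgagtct

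Of the 10 genes, 9 had a promoter in the table, with 12 annotated starts, and Osm had none there. TGANTCA occurred before 3 of these 12 starts, in Lif with its first base at -228, in Il11 at -98 and in Il6 at -249, counted back from the start. It occurred in 6.75% of 32851 promoters of the same length. TTCNNNGAA occurred before 1 of the 12 starts, in Socs3 at -154, and in 7.02% of the 32851 promoters. Each motif is its own reverse complement, so 1 search covers both strands, and neither overlapped the other in these genes. Both motifs were picked after the expression values had been seen, and a match is a description of the letters only.

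The label check and the makeup of the tumors come first. Vnn1 averaged 5.70 ± 0.13 (SD, n = 4) in the R group, against 11.56 ± 0.16 with the deficient and 10.87 ± 0.34 with the intact vector, and every tumor with a Vnn1 vector lay above every R tumor. Vnn1 was also lower in VR than in VdR tumors, by 0.69 (1.61-fold, limma adjusted p = 0.0292), and these groups did not overlap. VR and VdR tumors thus differ in Vnn1 RNA level as well as in the catalytic activity of the product. All 15 fibroblast and myofibroblast markers passed the filter, with a mean log2 level between 11.15 and 11.88 over the 12 tumors. By group this mean spanned 11.15 to 11.47 (R), 11.33 to 11.56 (VdR) and 11.61 to 11.88 (VR). Skeletal muscle markers, 11 genes, set 5 tumors apart within their groups. Their mean log2 level was 8.75 and 7.90 in R tumors 2 and 5, 8.30 and 8.82 in VdR tumors 2 and 4 and 7.97 in VR tumor 2, and 6.39 to 6.55 in the other 7 tumors. Results for which leaving out these 5 tumors matters are given below without them, an alternative added after the data were seen, with 2 R, 2 VdR and 3 VR tumors kept. Pairs of arrays of a group correlated across genes at 0.988 to 0.996 (Pearson). Passing the filter is no proof of expression, since 13 of 20 measured genes of other organs passed it too.

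Compared with R tumors, VR tumors had less RNA of the ligands Lif and Il11 and more of the receptor Lifr. By limma, with p-values adjusted over all 16573 genes and called under 0.05, 1 of the 8 tested members rose in VR versus R, against 13.6% of all genes, and 2 fell, against 7.48% of all genes. In VdR versus R, 1 rose, against 6.58% of all genes, and 0 fell, against 2.81%. Between VR and VdR tumors 0 members were called, against 1.77% of all genes higher and 1.67% lower. At an unadjusted p under 0.05, limma held 5 members in VR versus R, 3 in VdR versus R and 3 in VR versus VdR. The methods' t-test held 4, 1 and 4 unadjusted and 1, 0 and 0 adjusted. The 3 in VR versus VdR by limma, Osmr, Il6st and Socs3, ranked 2225, 654 and 793 by p among the 16573 tested genes. At least 2225 genes thus had a limma p there of 0.0246, that of Osmr, or less. The share of all genes at an unadjusted p was not counted, so these counts are not a result about the members. Without the 5 tumors high in muscle markers, 4 members were called in VR versus R, 3 in VdR versus R and 0 in VR versus VdR. Over all 16573 tested genes, 2798, 1120 and 7 were called in that setting. VR versus R and VdR versus R share the 4 R tumors, so their values stand side by side and are not independent of each other.

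Groups that do not overlap at all were counted as well. In VR versus R, the lowest VR tumor exceeded the highest R tumor for 2 of the 8 members (Lifr and Il6st), against 15.3% of all genes, and below for 2 (Lif and Il11), against 10.5%. In VdR versus R this held for 1 member above (Lifr), against 9.73%, and 1 below (Il11), against 4.50%. In VR versus VdR it held for 1 above (Il6st), against 5.88%, and for 3 below (Lif, Il11 and Socs3), against 6.77%. The two-sided exact permutation test of such a gene gives p = 0.0286, the smallest that 4 tumors against 4 allow.

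**Figure D1:**
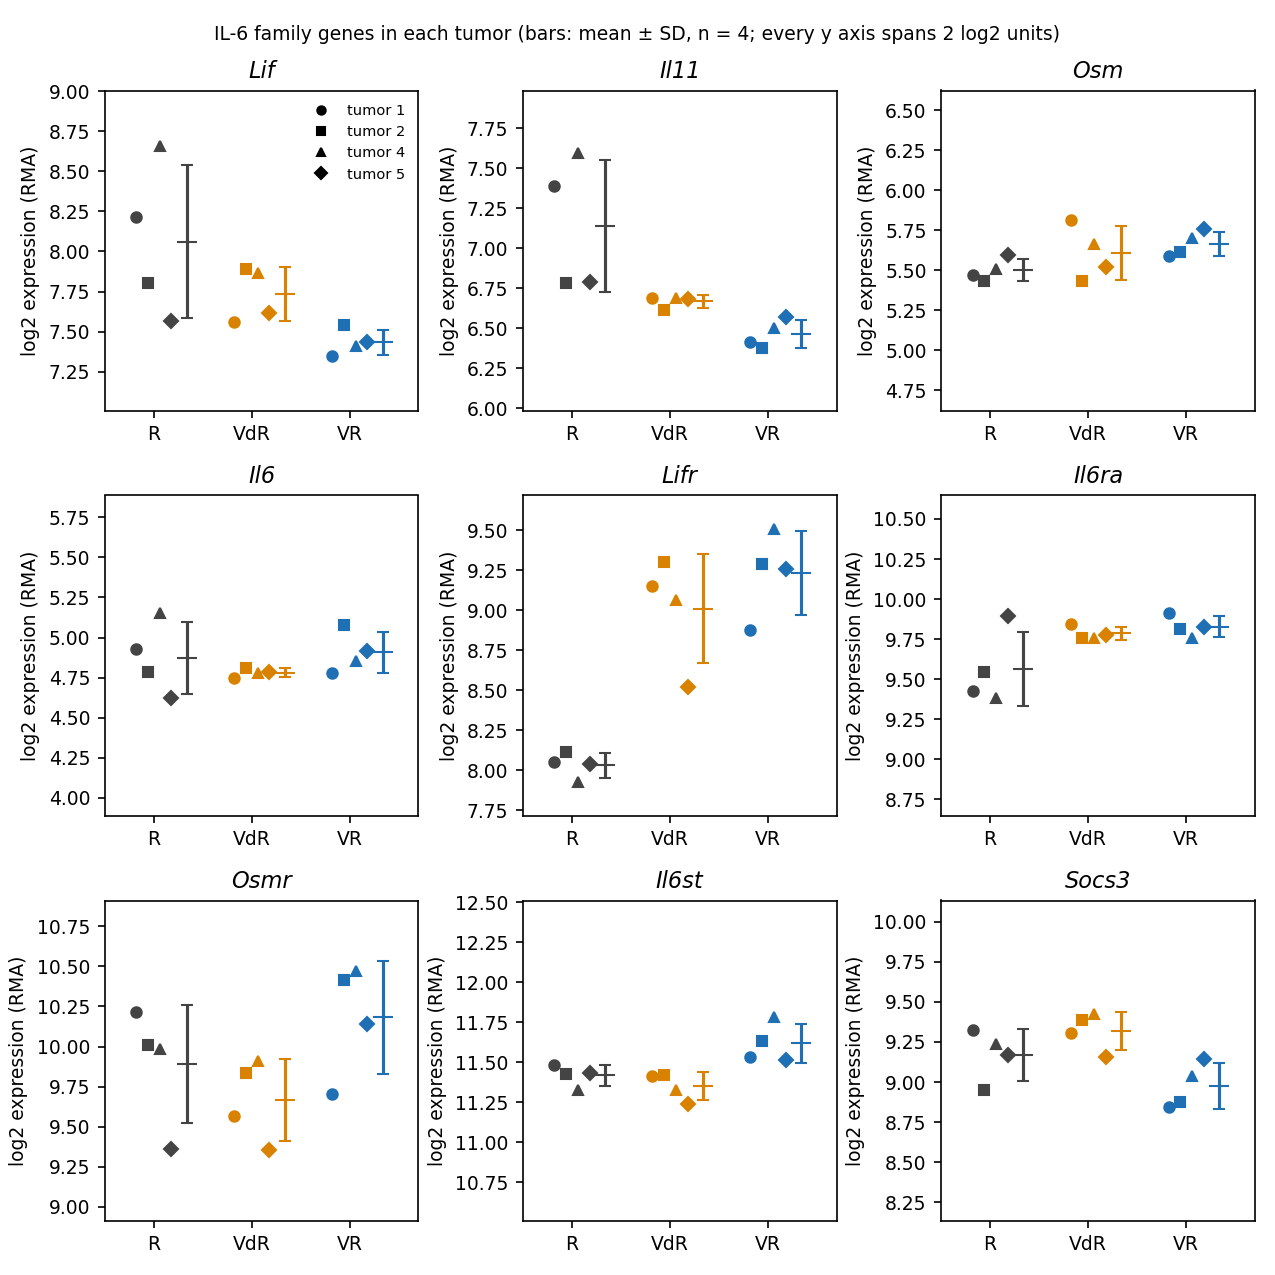
Log2 expression (y axis, RMA) of the 9 measured genes in each tumor, by group (x axis), with tumors 1, 2, 4 and 5 as circle, square, triangle and diamond, and the mean ± SD (n = 4) to the right of each group; every y axis spans the same range of 2 log2 units. Lifr lies between 7.92 and 8.11 in R tumors and at 8.52 or above in every other tumor, while Lif and Il11 are lowest in VR tumors.

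Among the ligands, Il11 had separate ranges in the 3 groups. Its log2 level was 7.39, 6.78, 7.60 and 6.79 in R tumors 1, 2, 4 and 5. It was 6.69, 6.61, 6.69 and 6.68 in the VdR tumors and 6.41, 6.38, 6.50 and 6.57 in the VR tumors. Every VR tumor lay below every VdR tumor, and every VdR tumor below every R tumor, though R tumors 2 and 5 lay close above the VdR tumors and R tumors 1 and 4 stood well apart. Il11 fell by 0.67 on the log2 scale in VR versus R (SE 0.154, a 1.60-fold lower level, limma adjusted p = 0.00892). The call was lost with the methods' t-test only (adjusted p = 0.158). In VdR versus R the difference was -0.47 (SE 0.154, adjusted p = 0.0786), and it was called without R replicate 2 (-0.59) and without R replicate 5 (-0.59). Without R replicate 4 the VdR versus R difference shrank to -0.32. Without the tumors high in muscle markers Il11 fell by 1.00 in VR versus R (adjusted p = 0.000819) and by 0.81 in VdR versus R (adjusted p = 0.00422). Between VR and VdR tumors it was -0.20 (SE 0.154, 95% interval -0.54 to 0.13, adjusted p = 0.525).

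Lif, which encodes leukemia inhibitory factor, the ligand of LIFR and gp130, varied in the same way. Its log2 level was 8.21, 7.81, 8.66 and 7.57 in the R tumors. It was 7.56, 7.89, 7.86 and 7.61 in the VdR tumors and 7.35, 7.54, 7.41 and 7.44 in the VR tumors. The VR tumors lay below all others, R tumors 1 and 4 were again the highest, and the ranges of R and VdR overlapped, as R tumors 2 and 5 were within the VdR range. Lif fell by 0.63 on the log2 scale in VR versus R (SE 0.184, 1.55-fold lower, limma adjusted p = 0.0294). This call depended on single tumors and on the fit. The adjusted p was 0.0575 with only these groups in the fit and 0.211 with the methods' t-test. It was 0.0783 without R replicate 1 and 0.0551 without R replicate 4, where the difference shrank to -0.43. It was 0.0654, 0.0659 and 0.0568 without VR replicates 1, 4 and 5. Without the tumors high in muscle markers Lif fell by 1.04 in VR versus R (adjusted p = 0.00243) and by 0.85 in VdR versus R (adjusted p = 0.0127). With all tumors the difference was -0.33 (SE 0.184, adjusted p = 0.317) in VdR versus R, and -0.13 without R replicate 4 and -0.49 without R replicate 5. It was -0.30 (SE 0.184, adjusted p = 0.416) in VR versus VdR.

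Lif and Il11 shared the same high tumors, R1 and R4. These are the R tumors with low skeletal muscle markers, at 6.55 and 6.54, against 8.75 and 7.90 in R tumors 2 and 5. In the VdR group the tumors high in muscle markers, 2 and 4, were instead the higher ones for Lif. The part of muscle in these values was not tested further. Over the 12 tumors the levels of Lif and Il11 had a Pearson r of 0.913. This is a description, since R tumors 1 and 4 stand apart for both genes and all values come from the same arrays. The genes with the highest Pearson r to Il11 among all tested genes were Hilpda (0.963), a lipid droplet protein induced by hypoxia, Sorcs1 (0.962), a sorting receptor, and Foxc2 (0.957), a forkhead transcription factor. Those with the highest r to Lif were Sorcs1 (0.926), the kinase gene Stk36 (0.922) and the splicing kinase gene Clk3 (0.919). Hilpda spanned 7.58 to 8.65 (R), 7.36 to 7.50 (VdR) and 7.18 to 7.57 (VR), so its VdR and VR ranges overlapped, unlike those of Il11.

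**Figure D2:**
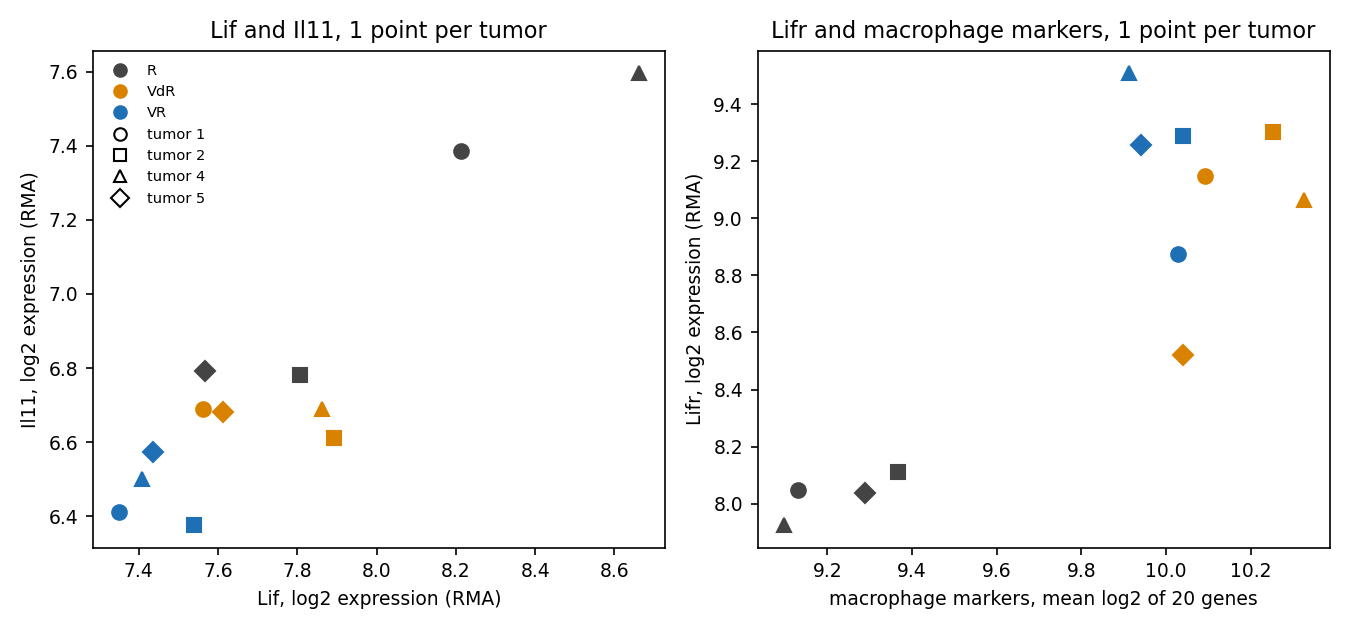
Left, log2 expression of Il11 (y axis) against Lif (x axis), 1 point per tumor, coloured by group and shaped by tumor number; R tumors 1 and 4 are high for both genes and the 4 VR tumors low for both. Right, log2 expression of Lifr (y axis) against the mean log2 level of 20 macrophage markers (x axis); the R tumors are low on both axes, and the VdR and VR tumors overlap on the Lifr axis.

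The other ligands were close to the floor of the arrays. Osm, which encodes oncostatin M, a cytokine made mainly by myeloid cells, was at 5.47, 5.43, 5.51 and 5.59 in the R tumors. It was at 5.82, 5.43, 5.66 and 5.52 in the VdR tumors and at 5.59, 5.62, 5.70 and 5.76 in the VR tumors. These values lie just over the filter level of 5.38 and the 3 groups overlapped, with R tumor 5 just within the VR range. The difference was 0.17 in VR versus R (SE 0.0791, limma adjusted p = 0.156), 0.11 in VdR versus R (adjusted p = 0.468) and 0.06 in VR versus VdR (adjusted p = 0.739).

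Il6, the founding cytokine of the family, was at 4.93, 4.78, 5.15 and 4.62 in the R tumors. It was at 4.74, 4.81, 4.78 and 4.79 in the VdR tumors and at 4.78, 5.08, 4.85 and 4.92 in the VR tumors. All 12 values lie under the filter level of 5.38, and the groups overlapped. Il6 was therefore left out of the limma fit. Its difference was 0.04 in VR versus R (two-sided exact permutation test, p = 0.886), -0.09 in VdR versus R (p = 0.571, exact permutation test) and 0.13 in VR versus VdR (p = 0.0857, exact permutation test). A change of Il6 RNA was thus not detectable at these signals, which does not show that there was none.

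Among the receptors, Lifr, the signalling chain for LIF, changed most of the 8 tested members, by limma, in both comparisons with R. Its log2 level was 8.05, 8.11, 7.92 and 8.04 in the R tumors. It was 9.15, 9.30, 9.07 and 8.52 in the VdR tumors and 8.87, 9.29, 9.51 and 9.26 in the VR tumors. All tumors with a Vnn1 vector, intact or not, lay above every R tumor, VdR tumor 5 was the lowest of them, and the VdR and VR ranges overlapped. Lifr rose by 1.20 in VR versus R (SE 0.157, a 2.30-fold higher level, limma adjusted p = 0.000406) and ranked 207 among all tested genes by p. It rose by 0.98 in VdR versus R (SE 0.157, 1.97-fold, adjusted p = 0.00226), where it ranked 286. The VR minus VdR difference was 0.22 (95% interval -0.12 to 0.56, adjusted p = 0.488), so these data neither show a difference between intact and deficient Vnn1 nor show that there is none. The VR versus R call held in all 19 alternatives. The VdR versus R call was lost with the methods' t-test (adjusted p = 0.146) and without the tumors high in muscle markers, which leaves 2 tumors in each of these groups (0.85, adjusted p = 0.0837).

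Macrophage markers, like Lifr, were higher in both groups with a Vnn1 vector than in R. Of 20 measured markers, 15 rose in VR versus R, against 13.6% of all genes, and 18 in VdR versus R, against 6.58%. In VR versus VdR 0 were called, against 1.77% of all genes higher and 1.67% lower. The median log2 difference of the markers there was -0.23, whereas the difference of Lifr was 0.22. Among the VR tumors, tumor 4 had the highest Lifr (9.51) and the lowest mean of the macrophage markers (9.91). The other groups went the other way. Among the R tumors, tumor 2 was highest on both (8.11 and 9.37) and tumor 4 lowest on both (7.92 and 9.10). Among the VdR tumors, tumor 5 was lowest on both (8.52 and 10.04), while tumor 2 had the highest Lifr and tumor 4 the highest markers. The mean log2 level of these markers spanned 9.10 to 9.37 (R), 10.04 to 10.33 (VdR) and 9.91 to 10.04 (VR). NK cell markers, 9 genes, averaged 5.48 to 5.58 (R), 5.77 to 5.88 (VdR) and 5.88 to 6.11 (VR). Endothelial markers, 11 genes, averaged 8.66 to 9.23 (R), 8.81 to 9.12 (VdR) and 9.17 to 9.54 (VR). The part of these cells in the Lifr, Lif and Il11 results was not tested. The genes most like Lifr over the 12 tumors were Reps2 (Pearson r 0.968), an endocytosis gene, Tgfbr2 (0.968), a receptor chain for TGF-β, and Cebpa (0.963), a transcription factor.

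Il6ra, the chain that binds IL-6, was at 9.43, 9.55, 9.38 and 9.90 in the R tumors. It was at 9.85, 9.76, 9.76 and 9.78 in the VdR tumors and at 9.91, 9.82, 9.76 and 9.83 in the VR tumors. R tumors 1, 2 and 4 lay below all others, and R tumor 5 lay inside the upper range. The difference was 0.27 in VR versus R (SE 0.0938, limma adjusted p = 0.0628) and 0.22 in VdR versus R (adjusted p = 0.172). Without R replicate 5 both were called, at 0.38 and 0.33, and so they were without the tumors high in muscle markers, at 0.43 and 0.41. With centring on the array median the VR versus R difference was 0.18, and it was also called with array weights, at 0.35. Between VR and VdR tumors the difference was 0.04 (95% interval -0.16 to 0.25).

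Osmr, the receptor chain for oncostatin M and the neighbour of Lifr, did not share its pattern. It was at 10.21, 10.01, 9.98 and 9.36 in the R tumors. It was at 9.56, 9.83, 9.91 and 9.35 in the VdR tumors and at 9.70, 10.42, 10.47 and 10.14 in the VR tumors. All 3 groups overlapped, with VR tumors 2 and 4 the highest and tumor 5 of R and of VdR the lowest. The difference was 0.29 in VR versus R (SE 0.203, limma adjusted p = 0.324), -0.23 in VdR versus R (adjusted p = 0.561) and 0.52 in VR versus VdR (95% interval 0.08 to 0.96, adjusted p = 0.183). Leaving out 1 tumor moved the VR versus R difference to 0.11 (without R replicate 5) or 0.45 (without VR replicate 1), and the VdR versus R difference to -0.12 (without R replicate 1 or VdR replicate 5) or -0.41 (without R replicate 5). Without the tumors high in muscle markers these differences were 0.01 and -0.64, and neither was called.

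Il6st, which encodes gp130, was at 11.48, 11.43, 11.33 and 11.44 in the R tumors. It was at 11.42, 11.42, 11.33 and 11.24 in the VdR tumors and at 11.54, 11.63, 11.78 and 11.52 in the VR tumors. The VR tumors lay above all 8 others, by a small margin, and the R and VdR ranges overlapped. The difference was 0.20 in VR versus R (SE 0.0688, limma adjusted p = 0.0587) and 0.27 in VR versus VdR (SE 0.0688, 1.20-fold, adjusted p = 0.0534), both just short of the threshold. The VR versus R difference was called without VR replicate 5 (0.23, adjusted p = 0.048), with array weights (0.0384) and with trended and robust moderation (0.0479), whereas centring on the array median cut it to 0.11 (adjusted p = 0.168). In VR versus VdR it passed the threshold in 5 of 19 alternatives, with adjusted p from 0.0339 to 0.238 over all 19. In VdR versus R it was -0.07 (adjusted p = 0.621).

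Socs3, the feedback inhibitor, was at 9.33, 8.95, 9.23 and 9.17 in the R tumors. It was at 9.31, 9.39, 9.43 and 9.16 in the VdR tumors and at 8.84, 8.87, 9.04 and 9.14 in the VR tumors. Every VR tumor lay below every VdR tumor, and the R tumors overlapped both. The difference was -0.35 in VR versus VdR (SE 0.0939, limma adjusted p = 0.0636), -0.19 in VR versus R (adjusted p = 0.161) and 0.15 in VdR versus R (adjusted p = 0.379). Socs3 has 2 probesets. With the one of lower mean the VR versus VdR difference was only -0.07 (adjusted p = 0.609), and with the mean of both -0.21 (adjusted p = 0.136). With the lower one the VdR versus R difference turned to -0.03, and without the tumors high in muscle markers it was -0.05. The VR versus R difference was called with array weights (-0.27) and with centring (-0.28).

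**Figure D3:**
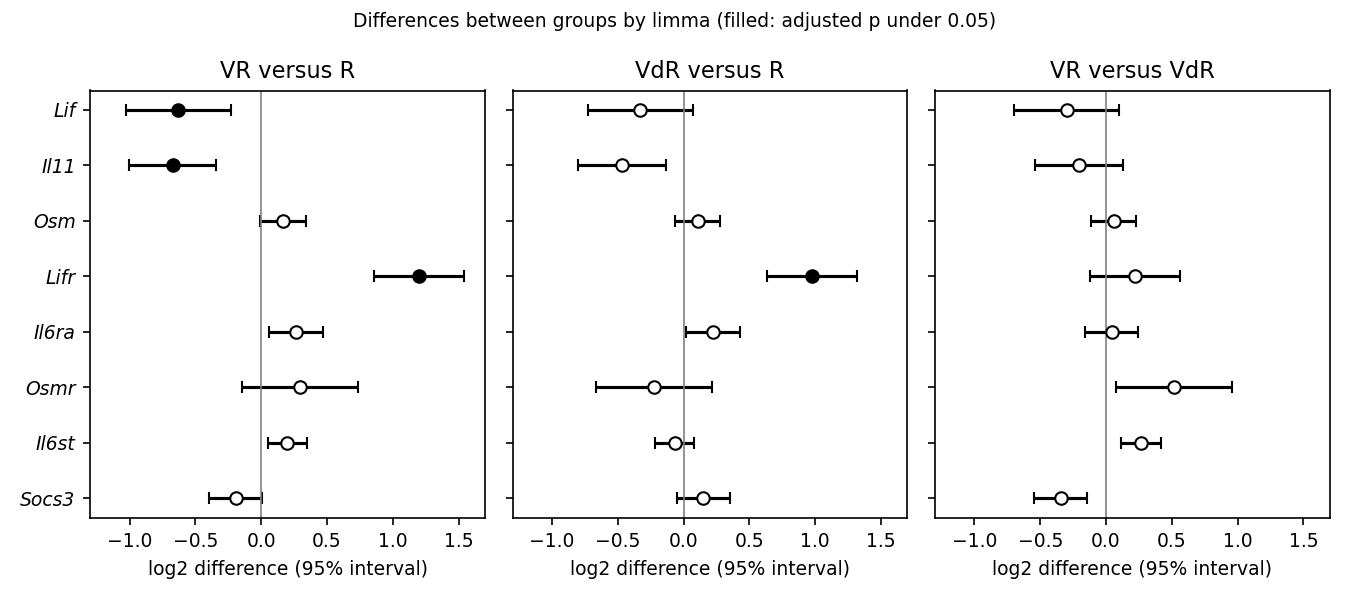
Log2 difference (x axis, points) with its 95% interval (bars) for the 8 tested genes (y axis) in each of 3 comparisons, by limma over all 12 tumors; filled points have an adjusted p under 0.05. Filled points are Lif, Il11 and Lifr in VR versus R, Lifr in VdR versus R, and none in VR versus VdR.

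Other cytokines and receptors related to gp130 were described from a list of 13 genes, of which 10 were tested. The list is broad, as IL-12, IL-23 and IL-31, with genes on it, do not signal through gp130. In VR versus R, 3 rose, Il12b among them, against 13.6% of all genes, and 1 fell, against 7.48%. The median log2 difference there was -0.10, against -0.01 over all tested genes. Clcf1, which encodes a ligand of the CNTF receptor, spanned 9.62 to 9.90 (R), 9.65 to 9.77 (VdR) and 8.97 to 9.52 (VR). The VR tumors lay below all others. It fell by 0.53 in VR versus R (SE 0.101, limma adjusted p = 0.00319). In VR versus VdR, where 1.67% of all genes were called lower, it was the only gene of the list called, with a fall of 0.43 (SE 0.101, limma adjusted p = 0.0409). That last call was lost with only these groups in the fit, with the replicate block (adjusted p = 0.0634), with the methods' t-test (adjusted p = 0.283), without the tumors high in muscle markers (adjusted p = 0.11) and without each of 7 of the 8 tumors (adjusted p 0.0355 to 0.101 over these 8 fits), VR replicate 2 being the exception.

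Ebi3, a subunit of IL-27 and IL-35, spanned 6.60 to 7.25 (R), 7.34 to 7.58 (VdR) and 7.36 to 7.87 (VR), so the R tumors lay below all others. It rose by 0.68 in VR versus R (SE 0.14, limma adjusted p = 0.00512) and by 0.56 in VdR versus R (adjusted p = 0.0251). Ebi3 was the 1 gene of the list called in VdR versus R, where 6.58% of all genes were called higher. This call was lost when any 1 of R replicates 1 and 2 and VdR replicates 1, 4 and 5 was left out (differences 0.45 to 0.55). Il27ra, the IL-27 receptor chain that pairs with gp130, rose by 0.28 (adjusted p = 0.0124) in VR versus R, and Il12b, the subunit shared by IL-12 and IL-23, rose by 0.55 (adjusted p = 0.023). Without the tumors high in muscle markers the calls of Il27ra (0.21) and Il12b (0.33) and the Ebi3 call in VdR versus R (0.71, adjusted p = 0.0533) were lost. The Il12b call was also lost without R replicate 2 (0.51) or VR replicate 2 or 4 (0.40 and 0.51).

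Of 24 tested genes of JAK-STAT signalling and its inhibitors, 6 rose in VR versus R, against 13.6% of all genes, and 0 fell, against 7.48%. In VdR versus R 3 of them rose, against 6.58%, and 0 fell, against 2.81%. In VR versus VdR 0 of them were called, against 1.77% of all genes higher and 1.67% lower. The median difference of this list was 0.13, 0.12 and 0.04, against -0.01, 0.00 and -0.02 over all tested genes. Ptpn6, which encodes the phosphatase SHP-1, abundant in blood cells, rose by 0.69 in VR versus R (SE 0.143, limma adjusted p = 0.00541) and by 0.74 in VdR versus R (adjusted p = 0.00656). The transcription factor gene Stat5a rose by 0.35 and 0.31 (adjusted p = 0.00273 and 0.01) in the same comparisons. The adaptor gene Gab1 rose by 0.32 in VR versus R (adjusted p = 0.00857) and by 0.29 in VdR versus R (adjusted p = 0.0267). The VdR versus R call was lost with cyclic loess (adjusted p = 0.0615), with centring (adjusted p = 0.083) and without any 1 of R replicates 1 and 4 or VdR replicates 1, 2 and 4 (0.25 to 0.29). Pias3, an inhibitor of STAT3, and Socs6 rose in VR versus R by 0.38 (adjusted p = 0.0211) and 0.34 (adjusted p = 0.0493). The Pias3 call was lost without R replicate 1 or 4 or VR replicate 4 (0.32 to 0.36), and the Socs6 call without any 1 of R replicates 2 and 4 or VR replicates 1, 4 and 5 (0.23 to 0.33). The Socs6 call was also lost with the mean of its probesets, which gave 0.18 (adjusted p = 0.0909), with no filter (0.0586), with cyclic loess (0.0622), with centring (0.0971) and with only these groups in the fit (0.0892). The count for VR versus R was 3 without R replicate 4 or without VR replicate 4, and that for VdR versus R was 6 without R replicate 5 and 1 without the tumors high in muscle markers. Stat3, named here for its role after its values were seen, differed by 0.01 in VR versus R (adjusted p = 0.957), by -0.06 in VdR versus R (adjusted p = 0.646) and by 0.07 in VR versus VdR (adjusted p = 0.636). An array of RNA does not measure the phosphorylation of STAT3.

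A list of STAT3 targets, with 25 tested genes, was drawn up from general knowledge and includes cytokine receptor chains such as Il10ra, Il10rb and Tnfrsf1a. In VR versus R 8 rose, against 13.6% of all genes, and 4 fell, against 7.48%. In VdR versus R 7 rose, against 6.58%, and 0 fell, against 2.81%. In VR versus VdR 0 were called, against 1.77% of all genes higher and 1.67% lower. The median difference of the list was 0.04, 0.17 and 0.01. Bcl3, Junb, Pim1, Myc, Cebpd, Timp1 and Ccnd1, named after their values were seen, were among the genes called in none of the 3 comparisons. Also named after their values were seen, Mcl1, Fos, Birc5 and Irf1 rose in VR versus R. Their differences were 0.35, 0.57, 0.47 and 0.22 (limma adjusted p = 0.00201, 0.00875, 0.0293 and 0.0262). In VdR versus R, Mcl1, Irf1 and Il4ra rose by 0.24, 0.36 and 0.45 (limma adjusted p = 0.0282, 0.00423 and 0.00948). Fgl2, a fibrinogen-like protein made by immune cells, spanned 6.63 to 7.25 (R), 7.78 to 8.13 (VdR) and 8.12 to 9.16 (VR), and rose by 1.56 in VR versus R (SE 0.216, limma adjusted p = 0.000561) and 0.95 in VdR versus R (adjusted p = 0.0163). Without R replicate 4 the VdR versus R call was lost (0.82). Il10ra, the IL-10 receptor chain of blood cells, rose by 1.30 and 1.21 (adjusted p = 0.000255 and 0.000623), and Il10rb, its widely expressed partner, by 0.73 and 0.63 (adjusted p = 5.06e-05 and 0.000131). The adhesion gene Icam1 rose by 0.63 and 0.55 (adjusted p = 0.0011 and 0.00418), and the VdR versus R call was lost without the tumors high in muscle markers (adjusted p = 0.0919). Ptpn6, Fgl2 and Il10ra, like Lifr, were higher in the groups whose macrophage markers were higher, and the part of macrophages in these values was not tested.

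The 4 genes of the STAT3 target list that fell in VR versus R were Vegfa, Cebpb, Pim3 and Osgin1, the last 3 named after their values were seen. Vegfa, the vessel growth factor, spanned 10.58 to 11.53 (R), 10.68 to 11.43 (VdR) and 10.23 to 10.67 (VR), with 1 R tumor below the highest VR tumor. It fell by 0.67 (SE 0.203, limma adjusted p = 0.0353), a call lost without any 1 of R replicates 1, 2 or 4 or of the 4 VR tumors (differences -0.72 to -0.55). Cebpb, a transcription factor, was at 8.66 to 9.14 in R and 8.26 to 8.36 in VR tumors, which did not overlap, and fell by 0.58 (adjusted p = 0.00525).

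**Figure D4:**
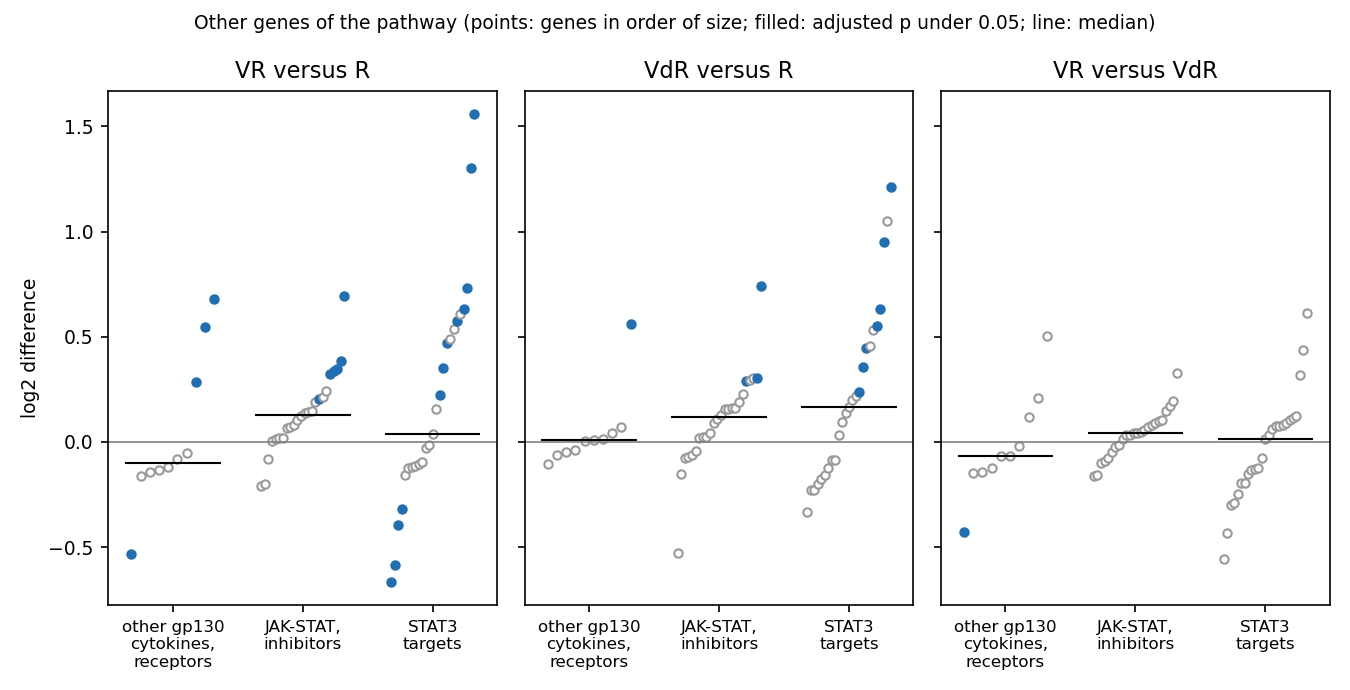
Log2 difference (y axis) of each tested gene of 3 lists (x axis: other cytokines and receptors listed as related to gp130, 10 genes, JAK-STAT signalling and its inhibitors, 24, and genes listed as STAT3 targets, 25) in 3 comparisons, with genes in order of size, filled points at an adjusted p under 0.05 by limma, and a line at the list's median. Clcf1 at -0.43 is the only filled point in VR versus VdR.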

How the data were processed

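The authors hybridised RNA of 12 tumors to Affymetrix mouse gene arrays. Per probeset the authors deposited a log2 value, and the submitters' processing notes name RMA and the oligo package, with no version. RMA puts the probe intensities of all arrays on one distribution, so an overall change in RNA content is not seen. The deposited probeset values are not on one distribution, with array medians from 6.66 to 6.77. The platform annotation gives 1 gene symbol to 21789 of 35556 probesets, and per gene the one with the highest mean was used. A gene was tested if 4 or more arrays exceeded 5.38, which is percentile 25 of the table.

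Groups and numbers came from the sample labels. The group means were fitted with limma 3.58.1 (R 4.3.3) over all 12 arrays, without covariates, and adjusted p-values (Benjamini-Hochberg) under 0.05 were called. The test was checked on simulated data. The number of arrays limits the precision. No batch was given in the sources used here. Alternatives covered the filter, probesets, moderation, array weights, scaling, a replicate block, the groups in the fit, the methods' t-test (named there for other assays, run here with unequal variances) and leaving out each tumor. The members and lists were chosen with earlier results of these data known. Named genes are all members, per list up to 4 called genes with the largest difference per comparison, and per called member the 3 genes with the highest Pearson r. Promoters are from RefSeq (GRCm38.p6).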

Additional observations from a re-analysis of the deposited data

Results flagged for a closer look

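Il11 in VdR tumor 2 was at 6.61, below the other VdR tumors at 6.68 to 6.69, a gap of 0.88 of the group's range, above Dixon's limit for 4 values. This was 1 of 27 groups of 4 values looked at, and chance passes the limit in about 1 in 20. The distance is small beside that between the groups.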

How the results depend on the processing

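Of 456 values of the 8 tested members under alternatives, 420 kept their direction and side of the threshold, 10 lost a call, 24 gained one and 2 turned. In VR versus R the 3 called members became 7 with array weights and 1 with the methods' t-test, and 2 to 4 without 1 tumor. In VdR versus R the 1 called became 3 with array weights, 2 with centring on the array median 0 with the methods' t-test, 3 without the tumors high in skeletal muscle markers and 1 to 3 without 1 tumor, where R replicates 2 and 5 raised it to 2 and 3. In VR versus VdR the 0 called became 1 with the stricter filter, with trended and robust moderation, with array weights, with cyclic loess and with centring. The cause was not tested. The 2 member values that turned, neither of them called, were both of Socs3 in VdR versus R. They were -0.0339 with its other probeset and -0.0483 without the tumors high in muscle markers, alternatives added after the data were seen. Values of list genes outside the members turned as well, none of them called. In VdR versus R these were -0.0174 for Il27ra with array weights and -0.0290 for Il12b with centring. In VR versus VdR, Ebi3 was -0.0289 without the tumors high in muscle markers. Without 1 tumor, Il12b in VdR versus R ran from -0.0551 to 0.115, and in VR versus VdR Gab1 ran from -0.0230 to 0.0698, Il10ra from -0.0350 to 0.242, Ptpn6 from -0.121 to 0.0376, Pias3 from -0.0029 to 0.125 and Icam1 from -0.0198 to 0.139.

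Over all genes, 3500 called in VR versus R became 5667 with array weights, 5390 with centring and 903 with the methods' t-test, 1555 in VdR versus R became 2595 with array weights, 24 with the methods' t-test and 972, 962 and 961 without R replicates 1 and 4 and VdR replicate 2, and 570 in VR versus VdR became 884 with array weights, 0 with the methods' t-test as few as 86, without VR replicate 4, and 7 without the tumors high in muscle markers, which keep 7 of 12 tumors. Of the called genes, 64.6% were higher in VR versus R, 29.2% with centring. In VdR versus R it was 70.1%, with 55.9% under cyclic loess and 41.3% under centring. The list counts of the methods' t-test in VR versus R were 0 for gp130 relatives, 0 for JAK-STAT genes and 3 for STAT3 targets, and in VdR versus R 0, 0 and 1. JAK-STAT genes called in VR versus R were 10 and in VdR versus R 5 with array weights, and gp130 relatives in VR versus R were 7 with centring.

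Nothing in the labels says that equal tumor numbers pair the samples. Of 12 same-numbered pairs, 8 had deviations correlated over 0.1 (from -0.15 to 0.40, mean 0.13), against 11 of 36 differently numbered pairs (mean -0.04), a hint of shared variation that did not hold for every pair. With the replicate block, 3, 1 and 0 members were called in VR versus R, VdR versus R and VR versus VdR. In VR versus VdR the block left 0 gp130 relatives called, since Clcf1 lost its call, and 1 STAT3 target. RMA log2 values near the filter level, as for Il6 and Osm, understate any change.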
